A study of Mus musculus with 14 samples.

Results

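Plasminogen activation was followed here through 7 genes, of 36161 gene names on the array. They were picked by name, and the set was chosen because the level of Plat is high in adenomas, so that the adenoma values of Plat, and with them every comparison of adenomas below, are given as a description and not as a test of the members. The genes are Plat and Plau, which encode the tissue-type and urokinase-type plasminogen activators, Plaur, which encodes the urokinase receptor, Serpine2 and Serpinb2, which encode the activator inhibitors protease nexin-1 and plasminogen activator inhibitor type 2, and Anxa2 and S100a10, which encode annexin A2 and its light chain partner p11. Each gene is measured by 1 probe and 1 spot on each array, and none of these spots was saturated or marked as an outlier.

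Plasminogen is a circulating zymogen. Tissue-type activator, which works best on fibrin or on a cell surface, and urokinase, which is held at the membrane by its receptor, cut it to plasmin, a protease that dissolves fibrin and degrades matrix proteins. Serpins trap both activators, and the complex of annexin A2 and S100A10 binds plasminogen and tissue-type activator at the cell surface. In the gut wall the activators are known as products of endothelium, stroma and leukocytes as well as of tumor epithelium.

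Each of 14 RNA samples was hybridized in a single color to an Agilent mouse array. Small intestine (3 arrays) came from different C57BL/6J mice without further treatment. Tissue adjacent to adenomas (2 arrays) and macroscopic adenomas (3 arrays) came from APCmin/+ mice, which carry 1 truncated Apc allele in every cell and form intestinal adenomas. The study lists all of these pieces under 1 animal, so their spread is that between pieces of tissue. Colon (3 arrays) is labelled C57BL/6J, although the study lists 1 colon sample under an ApcMin/+ mouse, and CT26 (3 arrays) is a single colorectal carcinoma line from ATCC, of BALB/c origin, that was grown without stroma. The study describes its wild type animals as adults. The tissue samples were whole tissue, and fewer cells of a type and less RNA per cell cannot be told apart in them. Since nothing says that the CT26 arrays came from separate cultures, p-values with this group measure only the spread between these samples.

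Levels are log2 signals relative to the 75th percentile of their own array, which is at 0. A difference of 1 between groups is therefore a doubling, and levels of different genes cannot be set against each other because each probe has its own brightness. Per array, 46.85% to 58.2% of the probes gave a signal well above background, and the number of arrays limits the precision. Epithelial markers were above background in all 4 tissues, and in CT26 4 of the 8, namely Epcam, Cdh1, Vil1 and Elf3, were not. Colon replicate 3 went against its label. On this array the median of 10 enterocyte markers of the small intestine was 5.19, against -2.38 and -2.16 on the other colon arrays and 5.91 to 8.81 in small intestine, and the median of 10 colonocyte markers was -2.51, against 3.67 and 4.14. Differences of single genes from colon are therefore given with and without it.

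The letters that were measured are shown for the 4 genes whose differences between adenomas and small intestine were the largest of the set, as the first 30 of the 60 bases of each probe, 5′ to 3′, with the mm9 position of the whole probe.
Plat, chr8:23892531-23892590: aaggttacgaattacctagactggattcac
Plau, chr14:21662242-21662301: gtgtatttctgtatctaactgcaagtctag
Plaur, chr7:25260569-25260628: ccctcgtgttgtcttctttggacctcagtt
Serpine2, chr1:79793476-79796093: aagcaaaaattgaagtcagtgaagatggaa
The Serpine2 probe is listed on the minus strand over 2618 genomic bases, far more than its own 60, so its letters are not contiguous in the genome. The remaining 3 probes lie at chr1:109422046-109422105 for Serpinb2, chr9:69339532-69339591 for Anxa2 and chr3:93368437-93368496 for S100a10. Exon and UTR annotation of this build was not used here.

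Plat was the gene that defined the set. Its level was 3.55, 3.18 and 3.23 on the adenoma arrays, -2.003, -1.95 and -1.95 in small intestine, and -0.37 and -0.68 in adjacent tissue. In colon it was -3.35, -1.67 and -3.21, and in CT26 -2.09, -0.86 and -1.71. Every adenoma array was above every other array, the adjacent pieces were above small intestine and colon, and colon and CT26 overlapped. Adenomas had a mean of 3.32 ± 0.20 (SD, n = 3), against -1.97 ± 0.03 (SD, n = 3) for small intestine, which gives a difference of 5.29 (SE 0.17), or 39.1-fold. Against adjacent tissue the difference was 3.84 (SE 0.19), or 14.4-fold, and against colon 6.07 (SE 0.47), or 67-fold, which became 5.83 (SE 0.49), or 57-fold, without colon replicate 3. Within the slides on which the arrays lay, the difference from small intestine was 5.37 and 5.13. With normexp correction the difference from colon was 5.13, or 35-fold.

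**Figure D1:**
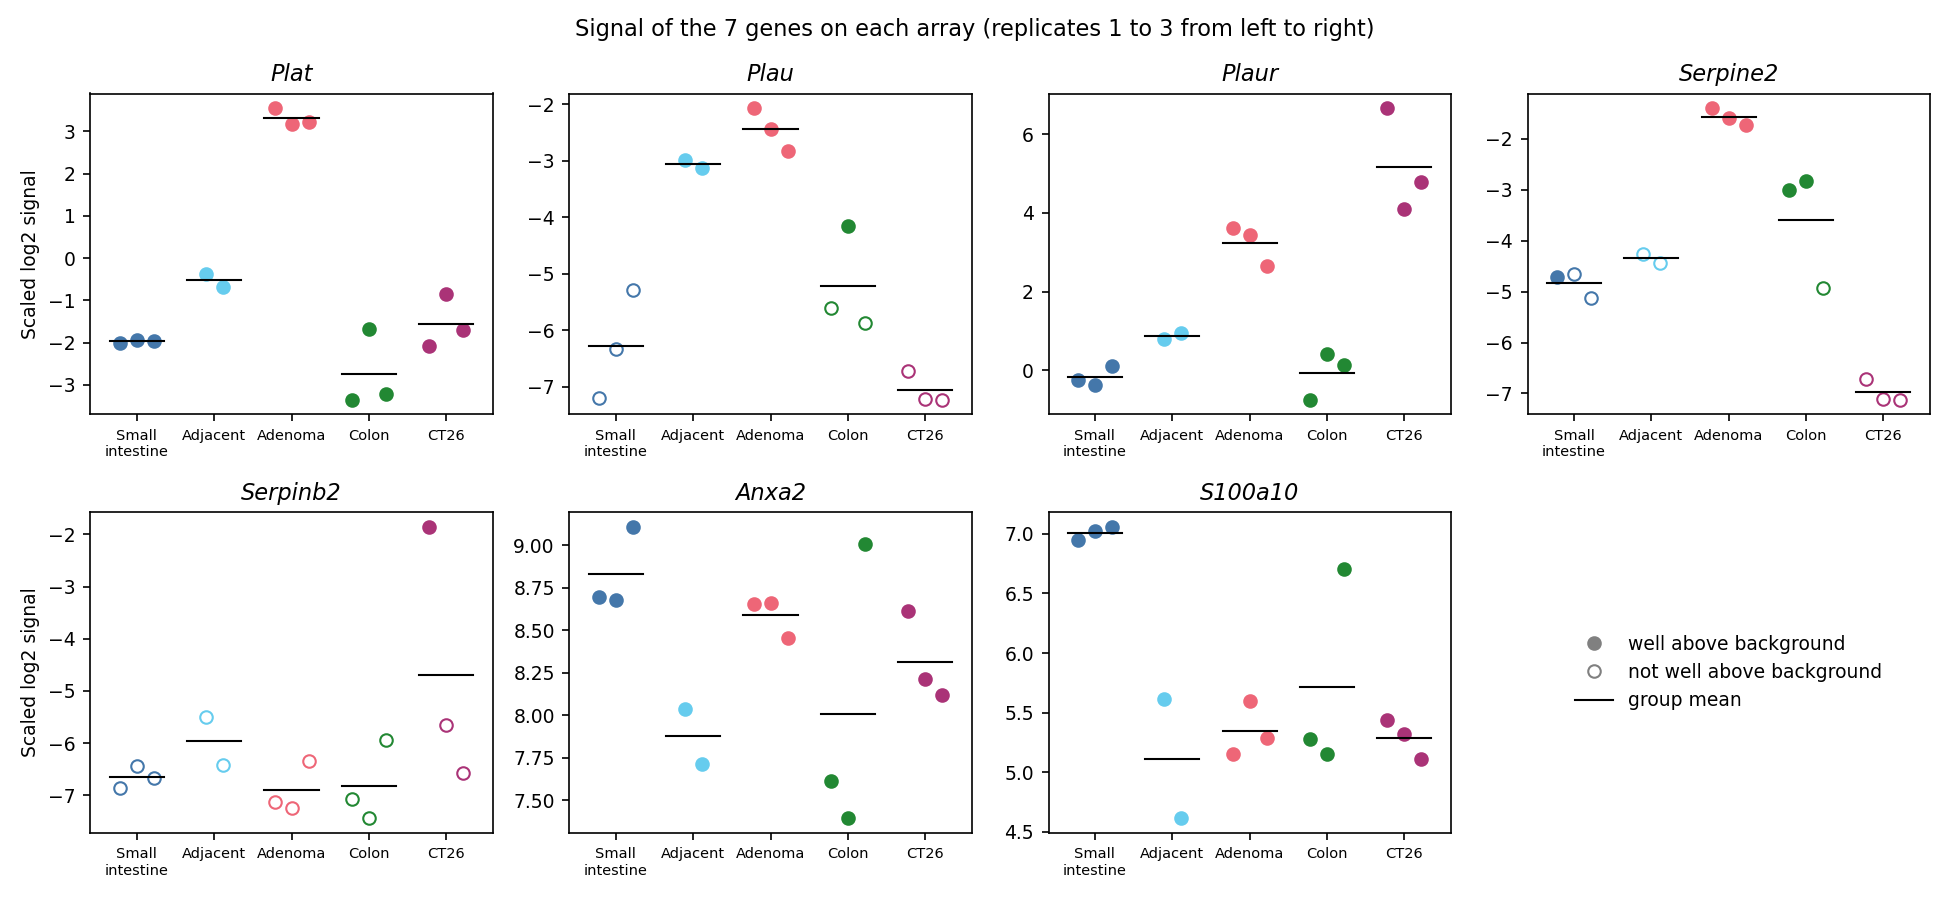
Level of each of the 7 genes on each array (vertical axis, log2 signal relative to the 75th percentile of the array; horizontal axis, the 5 sample groups; filled points, well above background; open points, not; lines, group means; each panel has its own scale). Plat was at 3.18 to 3.55 in adenomas and at or below -0.37 elsewhere, whereas Plaur was highest in CT26, at 4.10 to 6.67.

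Plau, the other activator, showed a different order. It was at -2.07, -2.44 and -2.83 in adenomas and at -2.98 and -3.14 in adjacent tissue, well above background on all 5 arrays. It was not well above background on any array of small intestine (-7.20, -6.33 and -5.28) or CT26 (-6.71, -7.21 and -7.23). In colon only replicate 2, at -4.16, was measured above background, beside -5.60 and -5.87. Adenomas and adjacent tissue thus lay close together and apart from the other groups (with normexp correction adenomas overlapped adjacent tissue and colon replicate 3), and between the APCmin/+ pieces the difference was 0.61 (SE 0.25), or 1.53-fold. On this scale adenomas were at least 4.15-fold above small intestine, with the lowest signals that count as well above background on those arrays taken as the limit. The size of this difference rested on the scaling, since it was 2.32-fold in the table the authors normalized and 2.04-fold with normexp correction. Against colon the difference was 2.77 (SE 0.49), and 2.43 (SE 0.46) without colon replicate 3, beside 1.003 in the authors' table and 0.76 with normexp correction.

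The receptor gene Plaur was above background on all 14 arrays. Its level was 3.63, 3.43 and 2.64 in adenomas, 0.79 and 0.95 in adjacent tissue, -0.24, -0.38 and 0.12 in small intestine and -0.75, 0.42 and 0.14 in colon. In CT26 it was 6.67, 4.10 and 4.78. The CT26 arrays stood above all others, though not with quantile scaling or in the table the authors normalized, where CT26 kept the highest mean but overlapped another group. Adenomas came next, adjacent tissue lay between adenomas and small intestine, and small intestine and colon overlapped. Adenomas differed from small intestine by 3.40 (SE 0.29), or 10.6-fold, from adjacent tissue by 2.37 (SE 0.31), or 5.15-fold, and from colon by 3.30 (SE 0.40), or 9.82-fold. Without colon replicate 3 the last of these was 3.40 (SE 0.45), or 10.5-fold.

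Among the inhibitors, Serpine2 was at -1.40, -1.58 and -1.73 in adenomas, above background on all 3 arrays. Elsewhere it was dim. In small intestine it was at -4.70, -4.66 and -5.13, with only replicate 1 above background, and in adjacent tissue at -4.26 and -4.44, with neither above it. Colon gave -3.01 and -2.84 on replicates 1 and 2 and -4.92, not above background, on replicate 3, which put that array with small intestine. None of the CT26 arrays, at -6.71, -7.11 and -7.12, was above background. On this scale adenomas were 6.86-fold above adjacent tissue, which gave no signal above background. They were 2.73-fold above it in the table the authors normalized and 2.36-fold with normexp correction. They differed from small intestine by 3.26 (SE 0.20), or 9.59-fold, with 1 of 3 small intestine arrays above background, and from colon by 2.02 (SE 0.56), which fell to 1.36 (SE 0.17), or 2.56-fold, without colon replicate 3. In the authors' table and with normexp correction these differences were 1.51 and 1.36 from small intestine and 1.06 and 0.82 from colon.

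Serpinb2, which is known from macrophages and epithelium under stress, was above background on 1 of the 14 arrays, CT26 replicate 1, at -1.85. The other CT26 arrays were at -5.65 and -6.57, and the tissues at -7.44 to -5.50, where values below background have no order. CT26 replicate 1 was also the highest array for Plaur. It correlated at 0.9675 and 0.9756 with the other CT26 arrays over 20851 probes, which correlated at 0.9913 with each other. No comparison of Serpinb2 passed the filter on dim probes.

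Anxa2 and S100a10 did not follow the activators. S100a10 was highest in small intestine under every scaling tried, whereas the group with the highest mean of Anxa2 was small intestine, adenomas or CT26 by the scaling. Anxa2 was at 8.66, 8.66 and 8.45 in adenomas, 8.70, 8.68 and 9.11 in small intestine, 8.04 and 7.72 in adjacent tissue, 7.61, 7.40 and 9.01 in colon and 8.61, 8.21 and 8.12 in CT26. S100a10 was at 6.95, 7.02 and 7.06 in small intestine, 5.15, 5.60 and 5.28 in adenomas, 5.61 and 4.61 in adjacent tissue and 5.44, 5.32 and 5.11 in CT26. In colon it was at 5.28, 5.15 and 6.71. For both genes colon replicate 3 was the high colon array and lay near small intestine. Adenomas and small intestine differed by -0.24 (SE 0.18) for Anxa2, or by 0.19 in the table the authors normalized, and by -1.67 (SE 0.17), or 3.17-fold lower in adenomas, for S100a10. Between adenomas and adjacent tissue the differences were 0.71 (SE 0.18) for Anxa2, whose groups did not overlap, and 0.23 (SE 0.33) for S100a10, whose groups did. Against colon they were 0.58 (SE 0.44) and -0.37 (SE 0.44), and 1.09 (SE 0.17) and 0.13 (SE 0.19) without colon replicate 3.

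A probe counted as called when its difference reached 1.2 on the log2 scale in size and its adjusted p by limma and the Benjamini-Hochberg method was at most 0.01. Of all probes tested, 21.9% were called between adenomas and small intestine, 10.9% higher in adenomas and 10.9% lower, and of the members 4 were higher and 1 was lower among 6 tested. Between adenomas and adjacent tissue 3.98% of probes were called, 2.27% higher and 1.71% lower, and 3 members were higher. Between adenomas and colon 3.42% were called, 1.98% higher and 1.44% lower, and 2 members were higher. Without colon replicate 3 this share was 11.2%, and Serpine2 joined Plat and Plaur. The set was chosen on adenomas, so nothing is read from these member counts. The count against adjacent tissue fell to 0 without adenoma replicate 2 or adenoma replicate 3 and to 1 without adenoma replicate 1. That against colon was 0 when any adenoma array or colon replicate 1 was left out.

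**Figure D2:**
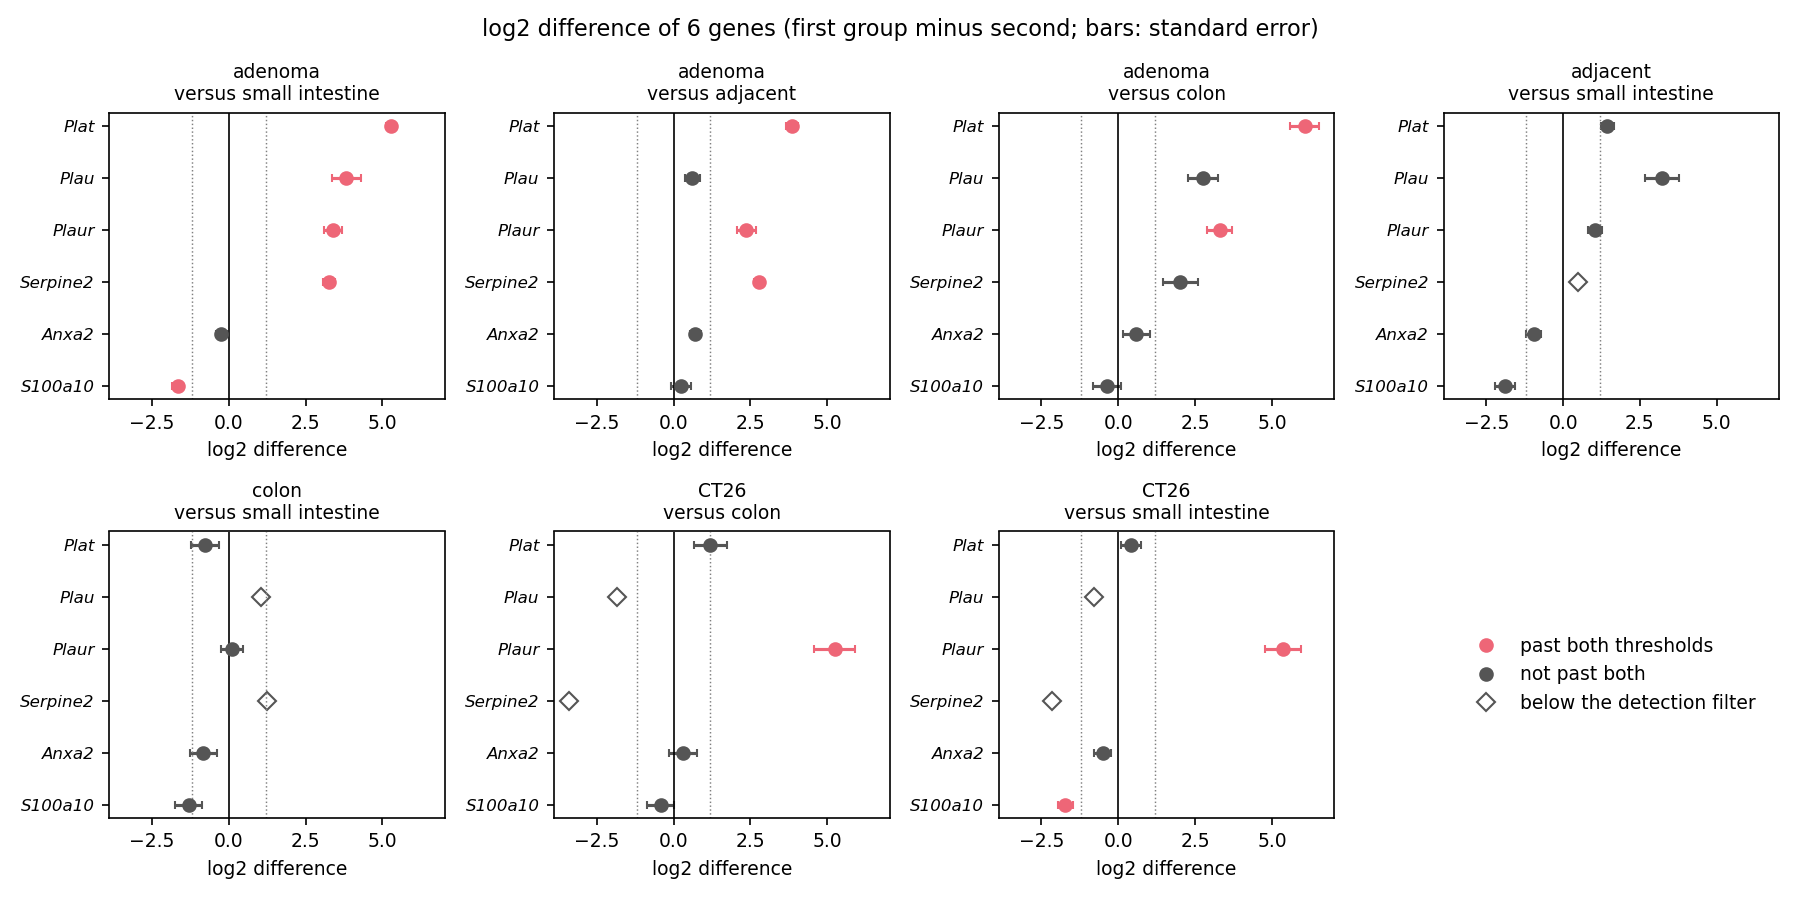
Difference between groups for 6 of the 7 genes in the 7 comparisons (horizontal axis, log2 difference, first group minus second, with the standard error; vertical axis, gene; dotted lines, the threshold of 1.2 in each direction; diamonds, genes not tested because neither group was above background throughout). Plat, Plaur and Serpine2 lay right of the upper line in all 3 adenoma comparisons, and Plaur alone lay right of it in both CT26 comparisons.

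The comparison of adjacent tissue with small intestine sets 2 pieces listed under 1 APCmin/+ animal against 3 arrays from different healthy mice. It does not use the adenoma arrays. Its p-values measure only the spread between these samples, and animal, genotype and position beside an adenoma cannot be told apart. None of the 5 members tested passed the thresholds, and the share called among all probes was 0.00694% (2 of 28833). Plat, Plaur, S100a10 and Anxa2 had an unadjusted p under 0.05 by limma, as did 30.3% of all probes tested. Plat was 2.72-fold higher in adjacent tissue (difference 1.45, SE 0.21, adjusted p = 0.04674) and Plaur 2.05-fold (1.04, SE 0.24, adjusted p = 0.06818). Plau was at least 2.72-fold higher on this scale, but 1.75-fold in the table the authors normalized and 1.81-fold with normexp correction. It passed the filter only through adjacent tissue, where it is higher, so no adjusted p is given for it. S100a10 differed by -1.90 (SE 0.33, adjusted p = 0.05147) and Anxa2 by -0.95 (SE 0.25, adjusted p = 0.08022). As a description of the means, with small intestine at 0 and adenomas at 1, adjacent tissue stood at 0.273 for Plat, 0.305 for Plaur, 0.148 for Serpine2 and 0.84 for Plau, where small intestine is below background for Plau and mostly so for Serpine2.

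Between colon and small intestine 0.00733% of probes (2 of 27299) and none of the 4 members tested passed, and 1 member had an unadjusted p under 0.05 by limma, as did 23.5% of all probes tested. S100a10 differed by -1.30 (SE 0.44, adjusted p = 0.1526). The differences of Plat and Anxa2 were -0.78 (SE 0.46, adjusted p = 0.3473) and -0.82 (SE 0.45, adjusted p = 0.3133). Plaur differed by 0.11 (SE 0.36, adjusted p = 0.8761). These counts changed when colon replicate 3 was left out, and the number of probes called also changed in a fit of all 5 groups. Without that array 6.94% of all probes were called, and S100a10 was lower in colon, with a difference of -1.80 (SE 0.21, 3.47-fold, adjusted p = 0.00404). Serpine2 was higher by 1.91 (SE 0.25, 3.75-fold), with 1 of 3 small intestine arrays above background. It passed the filter only through colon, so no adjusted p is given for it. Anxa2 then differed by -1.32 (SE 0.25) at an adjusted p of 0.01638, Plat by -0.54 (SE 0.48, adjusted p = 0.4314) and Plaur by 0.01 (SE 0.39, adjusted p = 0.9908).

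CT26 was set against colon, its tissue of origin, and against small intestine. Plaur was the member that rose in CT26. It was 37.9-fold higher than in colon (5.24, SE 0.67, adjusted p = 0.0004861) and 40.8-fold higher than in small intestine (5.35, SE 0.59, adjusted p = 8.03e-05), with no overlap in either case. Without colon replicate 3 it was 40.6-fold higher than in colon (adjusted p = 0.0009213). Its difference from colon was 4.50 to 5.79 when each array was left out in turn, with adjusted p from 0.0008896 to 0.002441, and within the 2 slides it was 5.30 and 4.40. The background is high: 36.4% of probes were called between CT26 and colon, 21.5% higher and 14.9% lower, and 48.4% between CT26 and small intestine, 26.9% higher and 21.5% lower. Over all probes tested, the median difference of CT26 was 0.37 from colon and 0.21 from small intestine, and median centring raised these shifts to 1.03 and 0.78.

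Plau, which encodes the ligand of this receptor, was not above background on any CT26 array. Neither was Serpine2, which was at least 2.62-fold lower than in colon, where 2 of 3 arrays were above background. Colon replicate 3 kept that gene from the test. Without the array 39% of probes were called, and Serpine2 was lower in CT26 by at least 4.16-fold on this scale. It then passed the filter only through colon, where it is higher, so the fold is a description and no adjusted p is given. With all colon arrays Serpine2 was 1.84-fold lower in the table the authors normalized and 2.81-fold lower with normexp correction. Plat differed from colon by 1.19 (SE 0.54, adjusted p = 0.0987), with -0.23 on slide 1 and 2.42 on slide 2, and by 0.96 (SE 0.57, adjusted p = 0.1948) without colon replicate 3. It differed from small intestine by 0.41 (SE 0.34, adjusted p = 0.3028). Adenoma levels of Plat were not shared by the cell line, whose highest array, at -0.86, was below every adenoma and adjacent array.

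S100a10 was lower in CT26 than in small intestine by 3.29-fold (difference -1.72, SE 0.23, adjusted p = 0.0002653), and with median centring the difference was -1.15, short of the fold threshold. It differed from colon by -0.42 (SE 0.45, adjusted p = 0.4647), and by 0.08 (SE 0.28, adjusted p = 0.8349) without colon replicate 3. Anxa2 differed from colon by 0.31 (SE 0.46, adjusted p = 0.6059), or by 0.81 (SE 0.30, adjusted p = 0.05276) without colon replicate 3, and from small intestine by -0.51 (SE 0.26, adjusted p = 0.1165). The sign of Anxa2 turned with quantile normalization in the former comparison and with median centring in the latter.

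The rest of the system was read from 33 further genes in 6 lists, each at its brightest probe, and all 33 were found on the array. Plg itself, which is made in the liver, was below the filter in every comparison, as were Fgb, Fgg, Serpina5 and F12. Between adenomas and small intestine, 12 of 28 tested were called higher in adenomas and 4 lower, with a median difference of 1.48 against -0.15 over all probes tested. Between adenomas and adjacent tissue 7 of 28 were higher and 1 lower, with a median of 0.77 against -0.05. Against colon 1 of 27 was higher and 1 lower, with a median of 0.79 against -0.06, and 5 were higher and 1 lower without colon replicate 3. Of all probes tested, 10.9% were called higher and 10.9% lower against small intestine, and 2.27% and 1.71% against adjacent tissue. Against colon 1.98% were called higher and 1.44% lower, or 11.2% in either direction without colon replicate 3. The counts of listed genes are from the contrast that chose the set. They include A2m, which passed the filter against small intestine only through adenomas, where it is higher. No probe at all was called between adenomas and adjacent tissue without adenoma replicate 2.

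Of the other inhibitors on the lists, Serpinf2, which encodes the plasmin inhibitor alpha-2-antiplasmin, was higher in adenomas than in small intestine by 2.30 (SE 0.33), and A2m, a broad protease trap, by at least 4.88-fold on this scale, or 3.05-fold in the table the authors normalized and 2.58-fold with normexp correction. The largest difference from adjacent tissue on the lists was that of F13a1, the fibrin cross-linking factor known from macrophages, at 5.61 (SE 0.38). Only 1 adjacent array was above background for this gene. Its difference was 4.38 in the table the authors normalized and 4.07 with normexp correction. F13a1 was also the gene called higher against colon, by 3.87 (SE 0.43), or 3.56 (SE 0.39) without colon replicate 3, when Serpinf2, A2m, Itgav and S100a11 were called higher as well.

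Among genes for surface binding and clearance, Vldlr, an endocytic receptor for activator and inhibitor complexes, was higher in adenomas than in small intestine by 2.63 (SE 0.30). Lrp1, another such receptor, was lower, with a difference of -1.69 (SE 0.15). Plgrkt, the plasminogen receptor with a C-terminal lysine, was lower in adenomas in all 3 comparisons, with a difference of -2.42 (SE 0.16) from small intestine and of -2.40 (SE 0.23) from colon, or -2.505 (SE 0.22) without colon replicate 3. Hpn, a membrane serine protease, differed by 3.94 (SE 0.18) in the opposite direction. The coagulation genes F3, Thbd and Procr, for tissue factor, thrombomodulin and the protein C receptor, were called higher as well, with differences of 3.56 (SE 0.34), 2.71 (SE 0.41) and 4.77 (SE 0.25). Of the genes named here, Lrp1, F3 and Anxa1 had 1 other probe tested against small intestine, which was called in the same direction. Vldlr, Lrp1, Hpn, F3, Thbd and Procr were not called between adenomas and colon, with or without colon replicate 3. Their differences from colon were 0.79, -0.83, 1.27, 1.88, 1.64 and 3.525. Without that array they were -0.003, -0.34, 0.31, 1.26, 1.24 and 3.32. Vldlr, Hpn, F3 and Anxa1 were then called higher in colon than in small intestine.

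The relatives of Anxa2 and S100a10 were not alike. Anxa1, Anxa5 and Anxa6 were higher in adenomas than in small intestine, by 4.40 (SE 0.38), 2.36 (SE 0.18) and 1.59 (SE 0.28), and Anxa4 was lower, with a difference of -1.76 (SE 0.24). S100a6 was higher by 1.65 (SE 0.21). None of these genes was called between adenomas and colon, with or without colon replicate 3. The differences from colon were 1.59 for Anxa1, 1.62 for Anxa5, 0.85 for Anxa6, 0.28 for Anxa4 and 0.94 for S100a6. Without that array they were 0.05, 1.055, 0.83, 0.64 and 0.08.

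**Figure D3:**
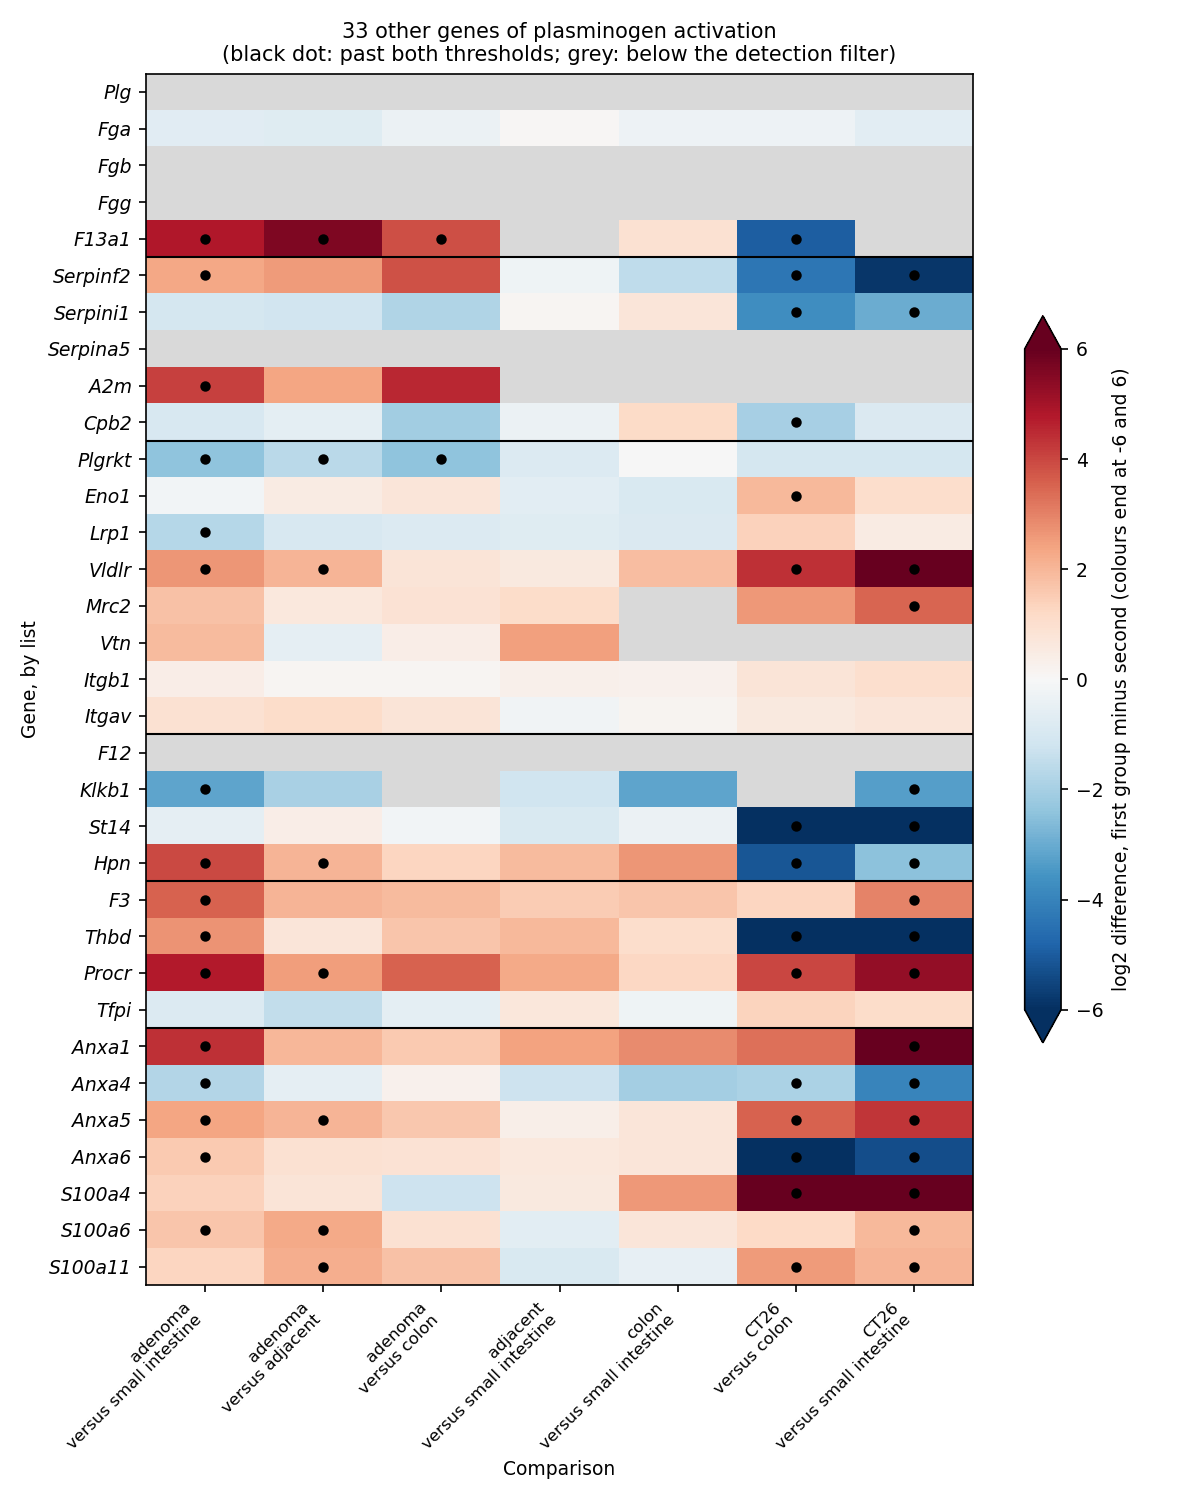
Difference between groups for 33 other genes of plasminogen activation (rows, genes in 6 lists separated by black lines; columns, the 7 comparisons; color, log2 difference, first group minus second; black dots, past both thresholds; grey, not tested). Vldlr and Procr carry dots of the same color against small intestine in adenomas and in CT26, while Serpinf2, Hpn, Thbd and Anxa6 turn from higher in adenomas to lower in CT26.

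None of the 26 listed genes tested was called between adjacent tissue and small intestine, and none of 25 between colon and small intestine. The shares called among all probes were 0.00694% and 0.00733%. By limma, 11 and 9 of the genes had an unadjusted p under 0.05, a cut that 30.3% and 23.5% of all probes tested reached. Among those counted is Vtn, which passed the filter only through adjacent tissue, where it is higher. Without colon replicate 3 the comparison of colon with small intestine gave 4 higher and 2 lower, where 6.94% of all probes were called. Between CT26 and colon, 6 of 25 were higher and 9 lower, and 9 and 9 without colon replicate 3, with a median of 0.76 against 0.37 over all probes. Between CT26 and small intestine 9 of 25 were higher and 8 lower, with a median of 0.75 against 0.21. Of all probes tested, 21.5% were called higher and 14.9% lower against colon, and 26.9% and 21.5% against small intestine. Without colon replicate 3, 39% were called against colon in either direction.

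In CT26 Procr rose by 4.03 (SE 0.55, adjusted p = 0.0007147) and Vldlr by 4.40 (SE 0.65, adjusted p = 0.001043) against colon. St14, which encodes the epithelial protease matriptase, was at least 829-fold lower than in colon, Thbd at least 34-fold and Hpn at least 29.4-fold. Serpinf2 was at least 5.32-fold lower. St14, Thbd, Hpn and Serpinf2 passed the filter only through colon, where they are higher. Their folds are therefore a description, and no adjusted p is given for them. These folds hold on the scale used here, and in the table the authors normalized St14 was 216-fold, Thbd 11.7-fold, Hpn 7.5-fold and Serpinf2 2.31-fold lower. S100a4 and Anxa5 were higher than in colon, by 6.00 (SE 0.42, adjusted p = 2.556e-05) and 3.56 (SE 0.49, adjusted p = 0.0007022), and Anxa6 was lower, with a difference of -6.05 (SE 0.40, adjusted p = 1.755e-05). Without colon replicate 3 these genes were called in the same direction. The differences were then 3.82 for Procr, 3.60 for Vldlr, 5.705 for S100a4, 2.996 for Anxa5 and -6.07 for Anxa6, and the lower genes were at least 719-fold (St14), 44.9-fold (Thbd), 57.2-fold (Hpn) and 3.43-fold (Serpinf2) below colon.

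Among the tissues, the medians of some marker lists were highest in adenomas, as were Plat, Plau, Plaur and Serpine2, and those of others were not. The 8 Wnt target genes had medians of 3.56 to 4.37 in adenomas and 1.53 to 2.58 in adjacent tissue. In small intestine they were at 0.04 to 0.61 and in colon at -0.37 to 0.12. The median of 8 endothelial markers was -0.47 to -0.06 on the adenoma arrays, -0.83 to -0.58 in adjacent tissue, -2.55 to -2.33 in small intestine and -2.65 to -1.27 in colon, so that adenomas and adjacent tissue lay close together, as they did for Plau. The median of 7 neutrophil markers was -1.01 to -0.75 in adenomas, -3.90 to -2.61 in adjacent tissue and -4.93 to -4.20 in small intestine, with Cxcr2 not above background in any tissue. That of 8 fibroblast markers was 3.71 to 3.85 in adenomas and 1.19 to 2.33 in small intestine, and that of 6 mast cell markers 0.73 to 1.33 and -2.74 to -0.96. Macrophage markers ranged from 0.20 to 0.52 in adenomas and from -0.30 to 0.05 in small intestine, and the 8 epithelial markers from 6.52 to 6.92 and from 7.88 to 8.16. The 8 smooth muscle markers went the other way from the activators, with medians of 3.34 to 3.57 in adenomas, 3.82 to 5.647 in adjacent tissue and 3.85 to 5.36 in small intestine. The log2 of the summed level, which the brightest marker of a list rules, was 4.21 to 4.47 for endothelium in adenomas and 3.60 to 4.08 in small intestine, and 5.58 to 5.80 and 4.91 to 5.72 for neutrophils. For fibroblasts it was 6.78 to 6.97 and 4.35 to 6.39, and for mast cells 5.15 to 6.49 and 0.54 to 3.54. For macrophages it was 4.11 to 4.70 in adenomas, below the 6.04 to 6.59 of small intestine. By the summed level adenomas were not highest for neutrophils, with 5.76 to 5.93 in adjacent tissue and 5.84 to 6.36 in CT26. Nor were they apart for endothelium, with 3.27 to 4.56 in colon, or highest for fibroblasts, with 8.565 to 8.71 in CT26. The part of these cells in the adenoma levels of Plat, Plau, Plaur and Serpine2 was not tested. Plaur was highest in CT26. There, 4 of the 8 endothelial markers (Cdh5, Tek, Tie1 and Emcn) were not above background on any array. The same held for 4 of the 8 macrophage markers (Adgre1, Lyz2, Fcgr1 and C1qa) and 5 of the 7 neutrophil markers. The remaining markers of these lists were above background on some or all CT26 arrays.

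**Figure D4:**
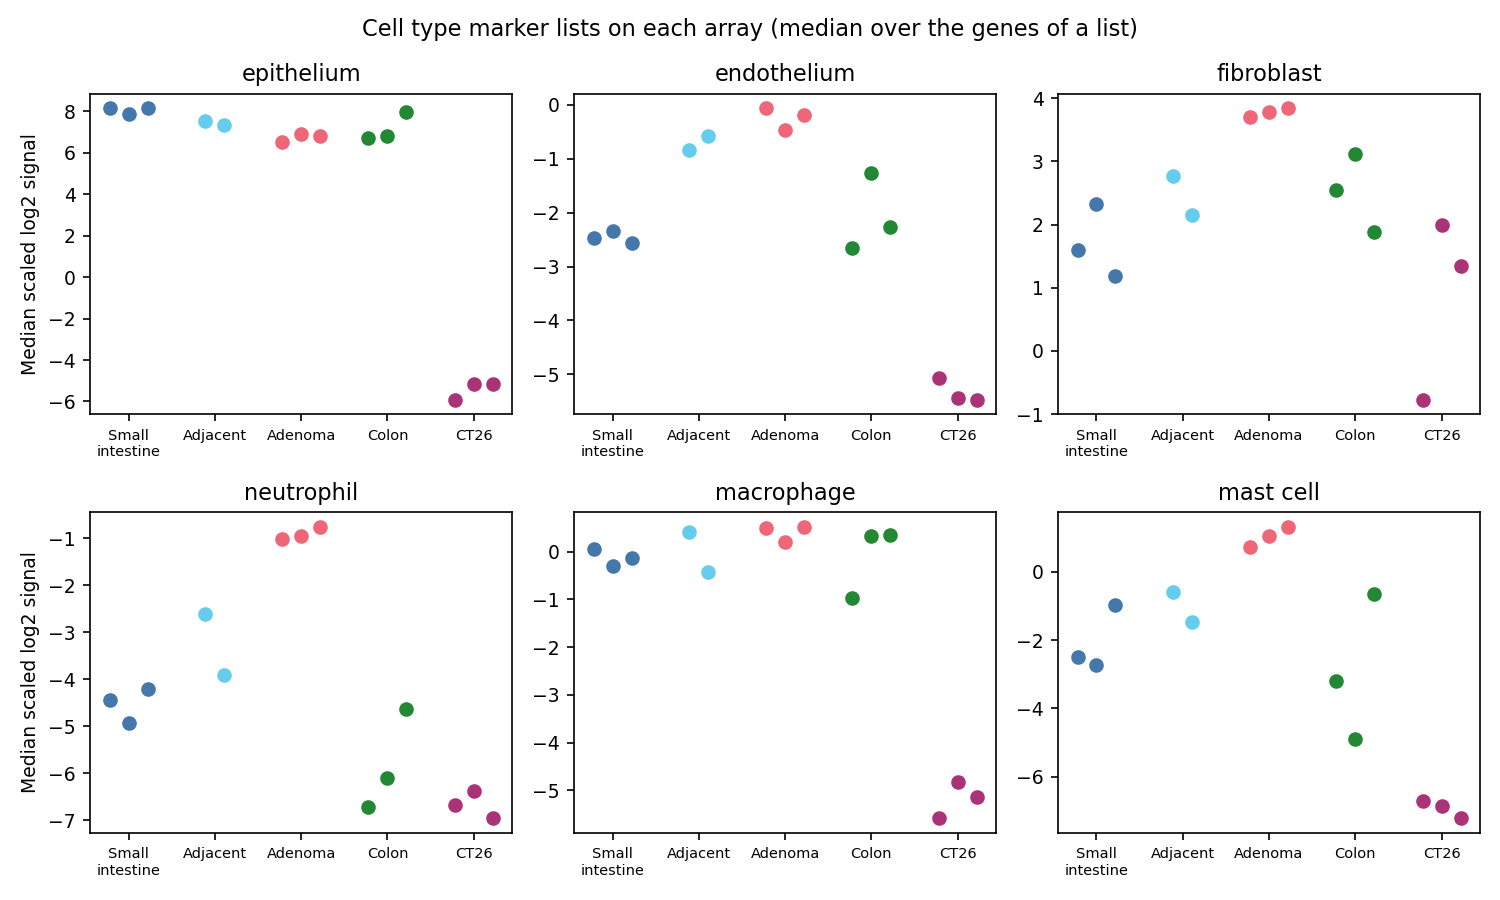
Median level of 6 cell type marker lists on each array (vertical axis, median log2 signal relative to the 75th percentile of the array; horizontal axis, the 5 sample groups; each point is 1 array, replicates from left to right). The adenoma arrays were highest for the endothelial, fibroblast, neutrophil and mast cell lists, and CT26 was lowest for the epithelial list, at -5.91 to -5.14.

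The genes whose levels ran most like those of each member over the 14 arrays were found by Pearson correlation among genes read at their brightest probe. The arrays share 5 groups, so these values describe the order of the groups and carry no test. For Plat they were Igfbp4 and Pla1a (r = 0.946 each), Btc (0.942), Ecscr (0.941) and Pmepa1 (0.936). Those nearest to Plau were Alox12 (0.964), Sox17 (0.959) and Ch25h (0.957), and to Plaur Pla2g2e (0.984), Dynap (0.981) and Avpi1 (0.975). Serpine2 ran with Hcar2 (0.979), Tpd52l1 (0.977) and Armcx6 (0.977). For Serpinb2, where 1 array carries the pattern, Cbll1 (0.925), Glis1 (0.912) and Lhx1 (0.909) came first. Anxa2 had Psmb6 (0.913), Ndufs4 (0.876) and Arpc4 (0.876), and S100a10 had Edf1 (0.947), Laptm4b (0.943) and Gm12271 (0.936). Members were left out of this search. Among themselves the highest r over the 14 arrays was 0.818, for Plau and Serpine2, below those of the genes named above. Over the 11 tissue arrays the highest was 0.969, for Plat and Plaur.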

How the data were processed

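The authors deposited the scanner files of 14 one-color arrays (Feature Extraction 10.7.3.1 per the file headers). The processed signal the authors deposited is an intensity from which that software had removed the background, not yet normalized between arrays. A table of log2 values normalized by the authors served as an alternative. It has 28 other columns of single samples, left unused, and the authors' own fold changes and p-values, which were not read either.

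Control spots and outlier spots (103 to 206 per array) were left out, the log2 signal was scaled to the 75th percentile of its array, and spots of a probe were averaged over 55681 probes. Groups came from the labels. Each of 7 pairs of groups was fitted with limma 3.58.1 in R 4.3.3 on its own arrays, over probes that 1 or both groups held well above background throughout. Thresholds were 1.2 in log2 and an adjusted p of 0.01 (Benjamini-Hochberg over all probes tested), and the fit was tested on simulated data. Members, pathway lists, marker lists and the rule for like genes were chosen with earlier results of these data known. The genes named are the 7 members, pathway genes among those past the thresholds, and the 5 genes most like Plat and 3 most like each other member. In "at least" folds the dim group is set, per array, at the lowest signal well above background or its own signal if higher. That limit is taken over all probes of an array, so these folds are not strict minima, and some were smaller with other scalings. Alternatives were normexp (offset 50), quantile and median scaling, other filters, a fit of all 5 groups, a trend, slide or replicate number as a block, and each array left out. One gene of the pathway lists is not reported here.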

Additional observations from a re-analysis of the deposited data

How the results depend on the processing

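Of the single differences of the members, 521 kept their direction and side of the thresholds, or moved by less than the spread between arrays, and 21 moved by more. S100a10 passed the thresholds in colon against small intestine without colon replicate 3 (-1.80) and no longer passed in CT26 against small intestine with median centring (-1.15). In comparisons without adenomas, the sign turned for Plaur in colon against small intestine without colon replicate 2 (-0.1341 to 0.4517 with each array left out). It turned for S100a10 in CT26 against colon with median centring (0.239) and without colon replicate 3 (-0.7003 to 0.07571 with each array left out). For Anxa2 it turned in CT26 against colon with quantile normalization (-0.07108) and against small intestine with median centring (0.0558). Small differences of adenomas turned as well. Among them were Anxa2 against small intestine (0.19 in the authors' table, 0.1384 with quantile normalization) and S100a10 against adjacent tissue without adjacent replicate 2 (-0.2708). S100a10 also turned against colon without colon replicate 3 (0.1288). The number of probes called, 6462 for adenomas against small intestine, was 4188 to 7816 with each array left out, and the members past both thresholds numbered 5 (5 with any array left out), 4 with normexp correction and 3 where both groups had to be above background.

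Against adjacent tissue, 1182 probes and 3 members became 70 and 1 with every probe tested, 258 and 1 in a fit of all 5 groups, 213 with slide as a block, and 0 to 1720 and 0 to 2 with each array left out. Against colon, 999 and 2 became 296 and 1, 1898 and 4, and 103 and 1 under those settings, 656 with the filter on both groups, and 5 to 3493 and 0 to 3 with each array left out. For adjacent tissue against small intestine, 2 probes became 5 (quantile), 1 (every probe, or both groups above background), 181 (all 5 groups), 0 (slide) and 0 with each array left out, with 0 members throughout. Colon against small intestine gave 2, and 5 in the authors' table, 7 with normexp, 10 with quantile scaling, 1 with both groups above background, 1043 in the fit of all 5 groups, 0 with slide, and 0 to 2120 probes and 0 to 2 members with each array left out. For CT26 against colon, 10712 probes became 6472 with both groups above background and 6990 to 12405 with each array left out, and 1 member became 2 with every probe tested and 1 to 2 with each array left out. Against small intestine, 14597 became 8936 with both groups above background and 12867 to 14598 with each array left out, and the 2 members (2 with any array left out) became 1 with median centring. The cause of these changes was not tested.

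The replicate numbers did not pair the samples (correlations of deviations from -0.322 to 0.29). With the replicate number as a block, adenomas against adjacent tissue gave 104 probes and 1 member, or 0 and 0 with the numbers in the sample titles, adenomas against colon 60 and 0, and adjacent tissue or colon against small intestine 0. Each member has 1 probe, so another probe of a member could not be tried. The order of the group means was kept under all 5 scalings for Plat, Plau, Plaur and Serpine2, and changed for the other members. Signal over background limits Plau, Serpine2 and Serpinb2.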
